A study of Mus musculus with 45 samples.

Results

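The genes described here are the bone morphogenetic protein (BMP) ligands Bmp4 and Bmp2, the type I receptor Bmpr1a, the pathway inhibitors Smad6 and Bambi, and the target genes Id1, Id2, Id3, Id4 and Msx2. They were chosen by symbol and make up 10 of the 35372 genes in each count file. All 10 passed the filter on low counts that left 17107 genes for testing. Their levels were followed by strand-specific RNA-seq in 45 libraries of E14tg2a, a male wild-type mouse embryonic stem cell (ESC) line of 129/Ola background. Before differentiation the cells were kept in 2iL, a serum-free medium with LIF and inhibitors of the kinases GSK3 and MEK, or in SL, which is serum with LIF. From either medium they were then differentiated for 1, 1.5, 2, 2.5, 3, 5 or 7 days under 3 conditions. In the EB condition embryoid bodies formed in suspension, in serum without LIF. In the FA condition, labelled EpiSC, adherent cells received N2B27 with Fgf2 and Activin A, and in the N2B27 condition, labelled Neural, adherent cells received serum-free N2B27 alone. A single library stands for every combination of medium, condition and day, and day 5 of FA from 2iL was not analysed here. Day 0 has 1 library in SL and 3 in 2iL, labelled EB, EpiSC and Neural (replicates 1, 2 and 3). These 3 were pooled as day 0 in 2iL, without pairing to their courses. They were not alike: the 10 most abundant genes took 16.2% of counts in the Neural library, against 9.8% (EB) and 9.15% (EpiSC). EB differed from the serum-free conditions in serum and also in growth as aggregates, and these cannot be told apart. All libraries come from this 1 cell line, so that the repeat of a condition and day is the other starting medium, and p-values measure only the spread between these libraries.

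BMP ligands bind a complex of type I and type II serine/threonine kinase receptors. The type I receptor phosphorylates Smad1, Smad5 and Smad9, which enter the nucleus with Smad4 and switch on target genes, Id genes among the best known. Id proteins are helix-loop-helix factors without a DNA-binding region, and they hold E proteins away from DNA. In mouse ESCs, serum or BMP together with LIF is known to sustain self-renewal through Id genes, while removal of BMP signals favours neural differentiation. Smad6 and Bambi, themselves targets of the pathway, act back on it inside the cell and at the membrane. In bulk RNA, a change in the share of cells that express a gene cannot be told apart from a change of RNA per cell.

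The promoter windows of the target genes were searched for the letters that BMP Smads bind, because Id1, Id2 and Id3 rose together below. Windows of 300 bases, from 250 before to 50 after the gene start, were at hand in RefSeq (GRCm38.p6) for 7 of the 10 genes, the exceptions being Id1, Bmp2 and Bambi. The GC-rich element GGCGCC, which reads the same on both strands, was found in the windows of Id2, Id4 and Bmpr1a and is held by 11.9% of all 32851 windows. The Smad-binding element GTCTG, or CAGAC on the other strand, was found at 2 places in the window of Id3 and is held by 49.6% of all windows. No match overlaps another, and a match is a description of the sequence and no measurement of binding. In another GRCm38 annotation, used below for exon lengths, the Id2, Id3 and Bmpr1a matches lie inside the gene. The Id4 match lies before the gene start there. Each run of 30 bases is given 5′ to 3′ on the strand of the gene, with the motif in capitals.
Id2, chr12:25096306-25096335, minus strand: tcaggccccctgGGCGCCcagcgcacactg
Id4, chr13:48260956-48260985, plus strand: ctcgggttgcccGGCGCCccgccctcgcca
Id3, chr4:136143643-136143672, plus strand: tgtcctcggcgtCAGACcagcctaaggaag
Id3, chr4:136143742-136143771, plus strand: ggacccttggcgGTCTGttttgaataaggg
Bmpr1a, chr14:34502727-34502756, minus strand: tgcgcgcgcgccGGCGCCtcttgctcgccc

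The libraries held 13093226 to 39804240 counts on genes, and the 8 libraries of the EB course from 2iL had a median of 34490692 against 17297450 in the rest. Levels are CPM, the counts scaled to a common library total of 1000000, and 3 counts correspond to 0.0754 to 0.229 CPM. The naive markers Zfp42, Esrrb, Tfcp2l1, Klf4, Nanog and Prdm14 summed to 2301 to 4181 CPM at day 0 and to 45.5 to 300.0 CPM at days 5 to 7. The neural markers summed to 249 to 606 CPM in N2B27 at days 5 to 7, and these sums overlapped with FA (161 to 371 CPM) and EB (101 to 255 CPM). In the same N2B27 libraries 9 extraembryonic endoderm markers, Gata6, Gata4 and Sox17 among them, summed to 1191 to 2828 CPM. The label Neural therefore covers a culture with RNA of both kinds.

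Before differentiation, 5 of the 10 genes were higher in SL than in 2iL, and 1 was lower. Of all genes tested, 18.0% were higher and 18.2% lower. Id1 stood at 44.1 CPM in SL and at 2.06, 2.11 and 2.29 CPM in the 3 libraries in 2iL. Id2 was at 8.67 CPM in SL against 0.560, 1.28 and 1.60 CPM, and Id3 at 6.91 CPM against 1.61, 2.66 and 3.13 CPM. Bmp4 showed 16.8 CPM in SL and 1.20 to 3.03 CPM in 2iL. Every library in 2iL lay below the library in SL for these 4 genes. Id4 went the other way, with 4.55 CPM in SL against 9.37, 10.4 and 11.8 CPM in 2iL. Log2 fold changes of SL against 2iL were 4.24 ± 0.45 (SE) for Id1, 2.90 ± 0.60 for Bmp4, 2.83 ± 0.36 for Id2, 1.42 ± 0.35 for Id3 and -1.32 ± 0.41 for Id4, with adjusted p-values of 8.52e-07, 0.000965, 7.02e-06, 0.00396 and 0.0153 in edgeR's quasi-likelihood test. Bmp2 was near the detection limit, at 0.713 CPM in SL and at 0, 0.0467 and 0.208 CPM in 2iL, with an adjusted p of 0.0255 that rose to 0.0522 or 0.0593 without 2iL replicate 2 or 3. Bmpr1a, Smad6, Bambi and Msx2 did not pass the threshold of 0.05. The spread behind these tests comes from the other libraries, as SL has a single library at day 0.

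**Figure D1:**
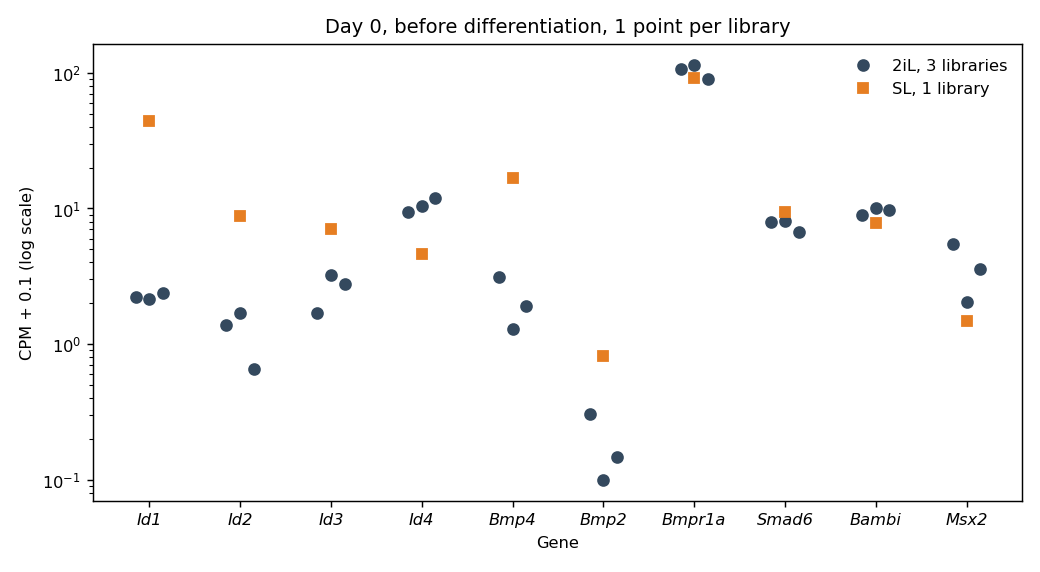
CPM of the 10 genes at day 0, with 0.1 CPM added and a logarithmic vertical axis, 1 point per library (3 in 2iL, 1 in SL). The SL library lies above all 3 libraries in 2iL for Id1, Id2, Id3, Bmp4, Bmp2 and Smad6, and below them for Id4, Bambi and Msx2. The differences of Smad6, Bambi and Msx2 did not pass the threshold.

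The single SL library also held RNA of extraembryonic endoderm. Of the 9 markers of that list, 7 were higher in SL at day 0 and none was lower. Their summed level was 432 CPM in SL and 3.53 to 6.13 CPM in 2iL. The part of these cells in the higher Id and Bmp4 levels was not tested.

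Once the cells were differentiated, the EB condition was compared with the mean of FA and N2B27, a question of what serum culture with aggregation does to the pathway. At days 1 to 2, 5 of the 10 genes were higher in EB (Id1, Id2, Id3, Id4 and Bmp4) and 1 was lower (Smad6), beside 17.1% of all genes higher and 15.9% lower. At days 2.5 to 3, Id1, Id3 and Bmp4 were higher and Bmpr1a was lower, beside 20.2% and 18.1% of all genes. At days 5 to 7, 6 were higher (Id1, Id3, Bmp2, Smad6, Bambi and Msx2) and 2 lower (Id2 and Id4), beside 16.8% and 16.9%. The median log2 fold change of the 10 genes was 0.63, -0.19 and 0.66 in the 3 windows, against -0.0043, 0.007 and 0.0029 for all genes. By days 2.5 to 3 the serum-free conditions had begun to part: against N2B27 alone Id1 was no longer higher in EB (0.68, adjusted p = 0.0706) and Id2 was lower (-0.92, adjusted p = 0.00136). Taken day by day, the number of the 10 genes past the threshold was 3 on day 1 (5.54% of all genes), 4 on day 1.5 (12.9%), 4 on day 2 (17.6%), 2 on day 2.5 (17.5%), 4 on day 3 (27%), 2 on day 5 (23.0%) and 8 on day 7 (18.7%).

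**Figure D2:**
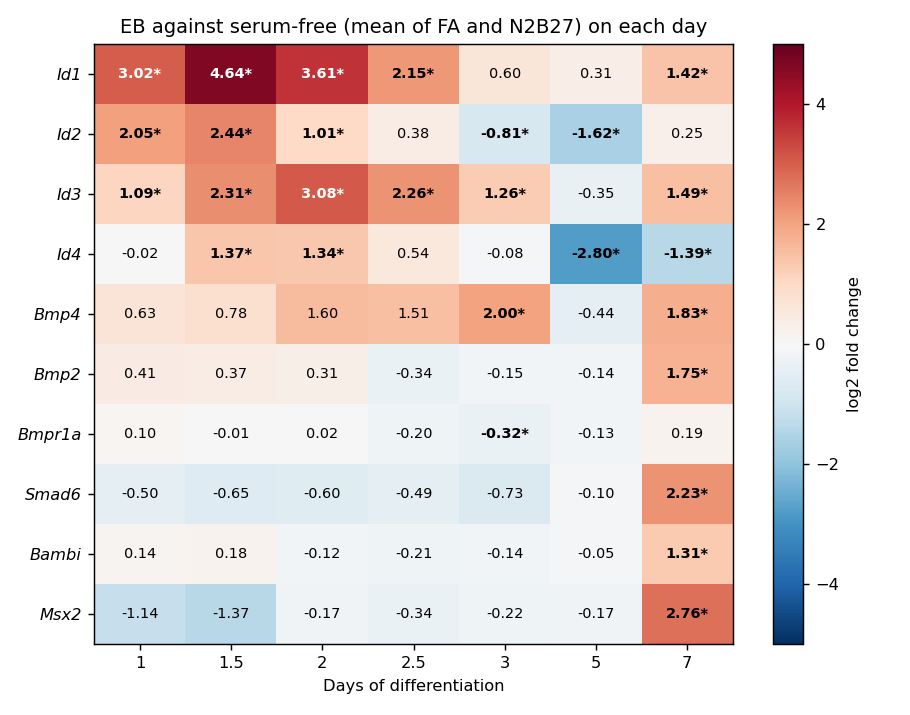
Log2 fold change of EB against the mean of FA and N2B27 for each gene (rows) and day (columns), with an asterisk and bold type where the adjusted p is under 0.05. Id1 and Id3 are high in EB from day 1 to day 2.5, Id2 turns from 2.44 on day 1.5 to -1.62 on day 5, and Smad6, Bambi and Msx2 pass the threshold upwards on day 7.

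Bmp4, the ligand that patterns mesoderm and amnion in the embryo, was highest on day 1 among days 1 to 3 in all 6 courses. It was at 8.54 CPM in EB, 6.20 CPM in FA and 5.73 CPM in N2B27 from 2iL, and at 10.2, 5.52 and 7.08 CPM in the same order from SL. By day 2 it had dropped to 2.78 and 2.48 CPM in EB and to between 0.217 and 1.32 CPM in the serum-free libraries. The EB libraries were the highest of each medium on all 5 days from day 1 to day 3, and at days 2.5 to 3 the groups did not overlap, with 1.98 to 3.57 CPM in EB and 0.456 to 1.09 CPM outside it. The log2 fold change was 1.0 ± 0.30 at days 1 to 2 (adjusted p = 0.0144), 0.94 and not past the threshold within 2iL alone (adjusted p = 0.207), and 1.75 ± 0.40 at days 2.5 to 3 (adjusted p = 0.00186).

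Bmp2, a close relative of Bmp4 with overlapping receptors, was higher on day 3 than on day 1 in every course, though it did not rise at every step. From 2iL it stood at 0.0451 to 0.181 CPM on day 1 and at 1.06 to 3.35 CPM on day 3. From SL it stood at 0.604 to 1.80 CPM on day 1 and at 3.22 to 6.10 CPM on day 3. Over days 1 to 2 it was 2.35 ± 0.32 log2 units higher after SL than after 2iL (adjusted p = 8.17e-06), while EB and serum-free differed by 0.36 (95% interval -0.25 to 0.97, adjusted p = 0.408).

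Bmpr1a, the type I receptor through which both ligands signal, rose slowly over time. It measured 89.9 to 114 CPM at day 0, 99.9 to 160 CPM at days 1 to 2 and 159 to 263 CPM at days 5 to 7. EB and serum-free libraries overlapped in every window. At days 1 to 2 their log2 difference was 0.03 (95% interval -0.09 to 0.16). At days 2.5 to 3 EB was lower by a small amount, -0.26 ± 0.08 (adjusted p = 0.0125), a call that was lost with library totals in place of TMM scaling (adjusted p = 0.116), without the replicate block of paired media (0.0785), within 2iL alone (0.369) and against FA alone (0.109).

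Smad6, an inhibitory Smad that competes with the receptor Smads, was the 1 gene lower in EB at days 1 to 2. Its levels were 2.30, 3.03, 3.29, 3.37, 3.94 and 6.94 CPM in EB and 3.25 to 10.9 CPM, with a median of 4.80 CPM, in the 12 serum-free libraries. The groups overlapped, and the log2 fold change was -0.58 ± 0.21 (adjusted p = 0.0356), which did not pass against FA alone or N2B27 alone (adjusted p = 0.0553 and 0.0935). The Smad6 call was also lost without the replicate block (0.122), within 2iL alone (0.220) and within SL alone (0.190). Bambi, a pseudoreceptor without a kinase region, stayed between 6.82 and 14.4 CPM in all libraries of days 1 to 3. Its log2 difference at days 1 to 2 was 0.07 (95% interval -0.24 to 0.37).

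Id1, Id3 and Id2 had the largest log2 fold changes of the 10 genes at days 1 to 2. Id1 in EB from 2iL measured 26.5 CPM on day 1, 53.8 CPM on day 1.5 and 38.6 CPM on day 2. From SL it measured 43.3, 41.6 and 25.8 CPM on the same days. The 12 serum-free libraries of those days held 1.0 to 5.34 CPM, with a median of 3.66 CPM, so that the lowest EB library was above the highest serum-free one. The log2 fold change was 3.76 ± 0.21, or 13.5-fold, with an adjusted p of 6.57e-10. Within the libraries from 2iL it was 4.28, and within those from SL 3.24. In FA and N2B27 Id1 reached its lowest levels at days 1.5 to 2, and in N2B27 it then rose from 1.30 and 4.23 CPM on day 2 to 23.6 and 23.2 CPM on day 3, where it met the EB level of 19.3 and 21.3 CPM. FA stayed at 8.92 and 6.15 CPM on that day.

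Id3 followed a like course. It measured 20.8, 23.8 and 23.1 CPM in EB from 2iL on days 1, 1.5 and 2, and 17.7, 13.3 and 11.7 CPM in EB from SL. The serum-free libraries dropped from 6.48 to 12.3 CPM on day 1 to 1.26 to 2.44 CPM on day 2. The groups did not overlap on any of these days, and the log2 fold change grew from 1.09 ± 0.24 on day 1 to 3.08 ± 0.26 on day 2 (adjusted p = 0.0091 and 5.36e-07). Over days 1 to 2 it was 2.16 ± 0.15, with an adjusted p of 3.15e-09.

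Id2 was at 9.15, 20.1 and 14.1 CPM in EB from 2iL and at 14.6, 20.1 and 16.3 CPM in EB from SL on days 1, 1.5 and 2. The serum-free libraries held 1.75 to 8.68 CPM and did not overlap with EB. The log2 fold change was 1.83 ± 0.15 (adjusted p = 2.79e-08). Thereafter Id2 drifted down in EB, to 9.13 and 12.4 CPM on day 3, while it climbed in N2B27 to 31.6 and 38.7 CPM. On day 3 the log2 fold change of EB against serum-free was -0.81 (adjusted p = 0.0248).

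Id4 fell in every course by day 1, and in N2B27 it had risen again by day 5. It went from 9.37 to 11.8 CPM in 2iL at day 0 to 1.35 to 2.70 CPM on day 1 in all 3 conditions, and from SL it went from 4.55 CPM to between 1.32 and 1.79 CPM. EB kept 1.57 to 2.94 CPM at days 1 to 2, with 0.487 to 2.70 CPM in serum-free libraries, and the log2 fold change was 0.90 ± 0.18 (adjusted p = 0.000921). Within 1 starting medium this was not past the threshold, at 0.95 within 2iL (adjusted p = 0.0697) and 0.86 within SL (adjusted p = 0.0614). Id4 overlaps 2 antisense genes, which the stranded counting keeps apart.

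**Figure D3:**
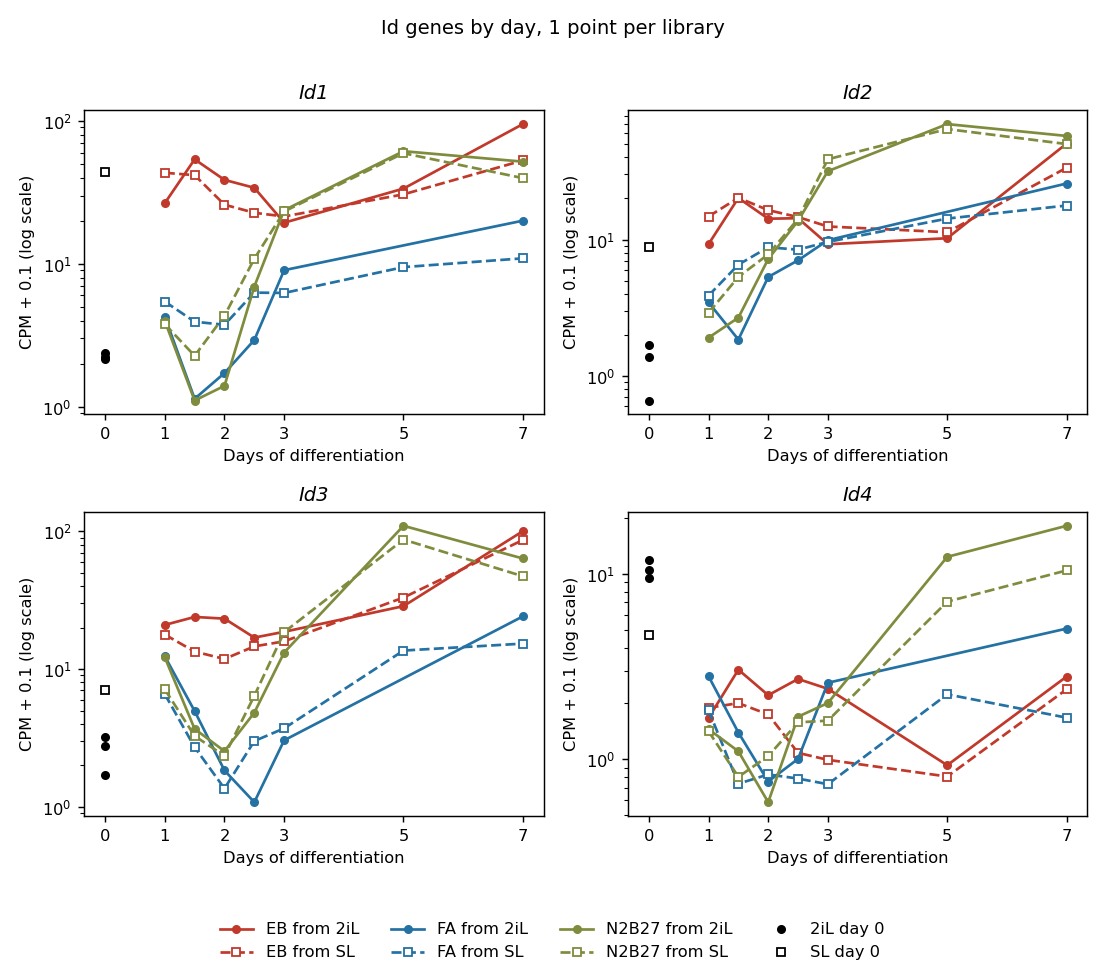
CPM of Id1 to Id4 in every library by day, with 0.1 CPM added and a logarithmic vertical axis, for EB (red), FA (blue) and N2B27 (green) from 2iL (filled circles) and SL (open squares), and day 0 in black. Id1, Id2 and Id3 lie higher in EB at days 1.5 and 2 than in any serum-free library of those days. On day 5 the N2B27 libraries lie above the EB libraries for Id1, Id2, Id3 and Id4.

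Msx2, a homeobox gene switched on by BMP in many embryonic tissues, did not follow the Id genes early. It fell from 1.93 to 5.35 CPM in 2iL to 0.114 to 0.941 CPM at days 1 to 2 in the 9 libraries from 2iL. EB was not above serum-free, with 0.114 to 1.03 CPM in EB and 0.359 to 1.47 CPM outside it. The log2 difference was -0.89 (95% interval -1.60 to -0.19, adjusted p = 0.0634), and it passed against N2B27 alone (-1.19, adjusted p = 0.0305) and by DESeq2 (adjusted p = 0.0312). At these levels few counts lie behind each value.

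Other cell types differed between EB and serum-free libraries of days 1 to 2 as well. Of the 5 formative epiblast markers 4 were higher in EB, with sums of 1201 to 3071 CPM against 418 to 1259 CPM. Of the 9 extraembryonic endoderm markers 3 were higher and 1 lower. From SL their sum was 1470 to 1962 CPM in EB and 719 to 978 CPM in serum-free libraries, and from 2iL it was 12.9 to 253 CPM and 13.4 to 173 CPM. On days 1.5 and 2 the sum from 2iL was also highest in EB, at 67.9 against 40.4 and 52.4 CPM and at 253 against 95.9 and 173 CPM. The part of the formative and extraembryonic endoderm cells in the Id levels was not tested.

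The course from day 0 depended on the starting medium. On entering serum from 2iL, 6 of the 10 genes changed by days 1 to 2 (53.0% of all genes did): Id1 rose by 4.21 ± 0.53 log2 units, Id2 by 3.64 ± 0.58, Id3 by 3.33 ± 0.55 and Bmpr1a by 0.45 ± 0.10, while Id4 fell by 2.25 and Msx2 fell by 4.04. The adjusted p-values ran from 8.25e-07 for Id1 to 0.000725 for Bmpr1a. From 2iL to serum-free conditions 4 of the 10 passed, beside 50.8% of all genes. Id2 rose by 1.61 (adjusted p = 0.0215) and Bmpr1a by 0.29 (adjusted p = 0.0101), while Id4 fell by 3.18 and Msx2 fell by 2.81. Id2 did not pass without 2iL replicate 1 or 3 (adjusted p = 0.0575 and 0.097), nor Bmpr1a without 2iL replicate 3 (0.0647), which left 2 of the 10. Id1 moved by -0.03 ± 0.53 (95% interval -1.07 to 1.0). From SL to EB, where serum stays and LIF leaves, Id1 differed from day 0 by -0.22 ± 0.60 (adjusted p = 0.821), and 3 of the 10 passed beside 32.0% of all genes. They were Bmp4, which fell by 1.83, Smad6, which fell by 1.60, and Bmpr1a, which rose by 0.50. From SL to serum-free, where both leave, 4 of the 10 passed beside 37.6%. Id1 fell by 3.46 ± 0.50 (adjusted p = 1.97e-05), Bmp4 by 2.84 and Id4 by 2.14, and Bmpr1a rose by 0.60. The comparisons from 1 starting medium share their day 0 libraries.

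The effect of EB against serum-free at days 1 to 2 was then set against the starting medium in a test of the interaction. None of the 10 genes passed by edgeR, beside 2.17% of all genes. At an unadjusted p under 0.05 the count was 1, and DESeq2 called 0. For Id1 the effect in 2iL exceeded that in SL by 1.01 log2 units (95% interval -0.20 to 2.22, adjusted p = 0.468). Across conditions the starting medium itself left a trace. Over days 1 to 2, Bmp2, Msx2 and Id2 were higher after SL by 2.35, 1.25 and 0.52 log2 units, and Id3 and Smad6 were lower, at -0.67 and -0.69. Of all genes 20.7% were higher and 21.2% lower. All 9 extraembryonic endoderm markers were also higher after SL, and their part in this was not tested.

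FA and N2B27 were also compared with each other, before they are read as a single serum-free side. At days 1 to 2 none of the 10 genes passed by edgeR, beside 1.53% of all genes. At an unadjusted p under 0.05 the count was also 0, and DESeq2 called 0. The 95% interval for Id1 was -0.43 to 0.76. At days 5 to 7 the conditions had parted. Id1, Id2, Id3, Id4, Bmp2 and Msx2 were lower in FA, 6 of the 10 beside 14.7% of all genes. Id1 measured 9.38, 10.8 and 19.9 CPM in FA and 39.7, 51.8, 59.4 and 61.3 CPM in N2B27. Id3 measured 13.5, 15.2 and 24.0 CPM in FA and 47.1, 63.3, 86.9 and 109.4 CPM in N2B27. Id2 measured 14.1, 17.7 and 25.6 CPM against 50.01, 57.4, 64.4 and 70.1 CPM, and Id4 1.58, 2.14 and 4.96 CPM against 6.97, 10.3, 12.2 and 18.0 CPM. The groups did not overlap for any Id gene. Log2 fold changes of FA against N2B27 were -2.18 ± 0.36, -1.84 ± 0.25, -2.21 ± 0.25 and -2.07 ± 0.30 for Id1 to Id4, and the largest of their adjusted p-values was 0.00014. The fits within 1 starting medium, given next, treat days as replicates. Within the libraries from SL 6 of the 10 passed (26.3% of all genes), the 4 Id genes and Msx2 and, as higher in FA, Bmp4 (1.32, adjusted p = 0.000917). Within those from 2iL, with 1 FA library, Id4 passed (15% of all genes). The Bmp2 call was lost within either medium (adjusted p = 0.0846 and 0.106), with library totals (0.0589), without the filter (0.0551) and without the replicate block of paired media (0.555), and the Msx2 call without that block (0.257). All 9 extraembryonic endoderm markers were lower in FA in the same libraries, with sums of 118 to 373 CPM against 1191 to 2828 CPM, and their part in the Id levels was not tested.

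The comparison of EB with serum-free conditions at days 5 to 7 therefore averages conditions that differ. Against FA, EB was higher for Id1 (1.96 ± 0.36), Id3 (1.68 ± 0.24), Bmp2 (1.32 ± 0.39), Smad6 (1.05 ± 0.34) and Msx2 (1.95 ± 0.46) and lower for Id4 (-1.06 ± 0.31), beside 18.9% of all genes called. Against N2B27, EB was lower for Id2 (-1.61 ± 0.20), Id3 (-0.54 ± 0.19) and Id4 (-3.12 ± 0.26) and higher for Bmp4 (1.31 ± 0.44), Smad6 (1.08 ± 0.28) and Bambi (0.75 ± 0.22), beside 45.8% of all genes called. Id1 against N2B27 was at -0.22 (95% interval -0.77 to 0.32). Over the window Id3 was thus above FA and below N2B27, and Id4 was below both. For Id1 and Id3 these averages join days that went opposite ways against N2B27. Id1 was at 30.5 and 33.5 CPM in EB and at 59.4 and 61.3 CPM in N2B27 on day 5, but at 52.8 and 94.9 CPM against 39.7 and 51.8 CPM on day 7. Id3 was at 28.5 and 32.9 CPM in EB and at 86.9 and 109.4 CPM in N2B27 on day 5, but at 86.3 and 100.0 CPM against 47.1 and 63.3 CPM on day 7. EB and N2B27 did not overlap on either day for these genes, and the difference between the days was not tested.

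**Figure D4:**
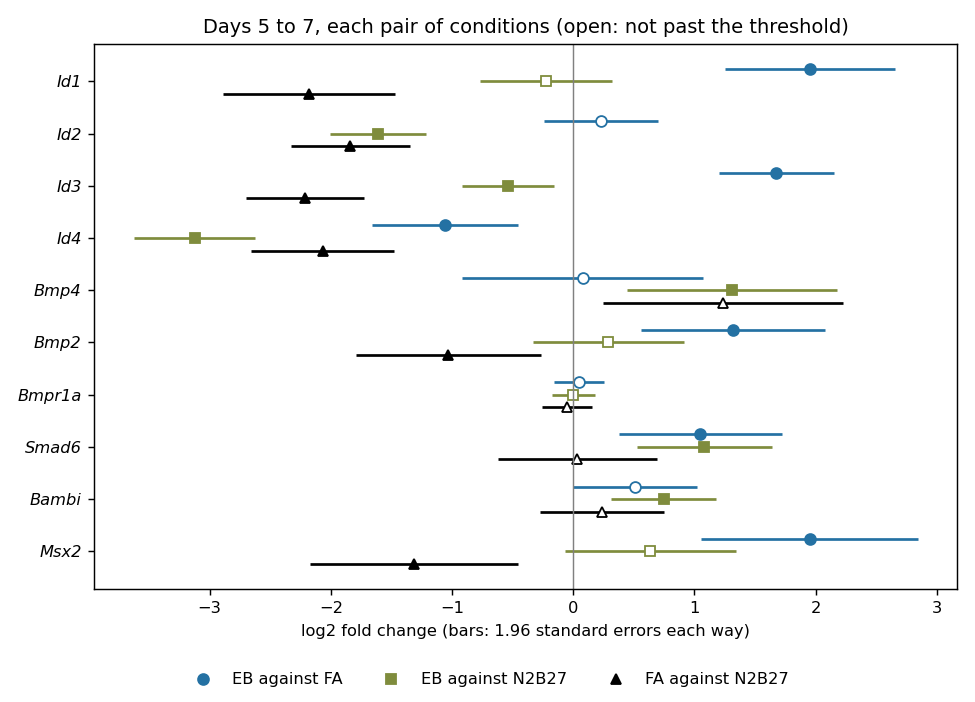
Log2 fold change at days 5 to 7 for EB against FA (blue circles), EB against N2B27 (green squares) and FA against N2B27 (black triangles), with bars of 1.96 standard errors and open symbols where the adjusted p is 0.05 or more. The Id genes lie left of 0 in FA against N2B27, and Bmpr1a lies close to 0 in all 3.

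The late rise of the inhibitors and of Msx2 in EB rested largely on 1 library. The EB library from 2iL on day 7 was the highest of all 45 for 7 of the 10 genes, and for 7.99% of all genes tested. Msx2 was at 84.2 CPM there and at 14.9 CPM in EB from SL, with 3.57 to 8.54 CPM in the 4 serum-free libraries of that day. Smad6 was at 60.0 and 14.1 CPM against 5.60 to 7.62 CPM, and Bmp2 at 30.5 and 15.3 CPM against 3.94 to 10.5 CPM. Both EB libraries lay above all serum-free libraries for these 3 genes. Bmp4 was at 56.1 CPM in EB from 2iL and at 6.40 CPM in EB from SL, and Bambi at 63.2 and 15.02 CPM. The serum-free libraries held 3.87 to 10.7 CPM of Bmp4 and 12.1 to 14.8 CPM of Bambi, so that the EB library from SL lay inside that range for Bmp4 and just above it for Bambi.

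On day 7 the log2 fold changes with both EB libraries were 2.76 ± 0.43 for Msx2, 2.23 ± 0.33 for Smad6, 1.83 ± 0.53 for Bmp4, 1.75 ± 0.37 for Bmp2, 1.49 ± 0.23 for Id3, 1.42 ± 0.33 for Id1 and 1.31 ± 0.27 for Bambi. Without the library from 2iL, Id3 was still higher, at 1.67 ± 0.32 (adjusted p = 0.00535). The other 6 no longer passed, with Msx2 at 1.40 (adjusted p = 0.0911), Smad6 at 1.02 (0.0674), Bmp2 at 1.33 (0.146), Id1 at 1.32 (0.115), Bambi at 0.17 (0.678) and Bmp4 at -0.17 (0.885). Id4, the 1 gene lower in EB on day 7 with both EB libraries, was at -0.88 without the library from 2iL and did not pass. Over days 5 to 7, 8 of the 10 genes passed with that library and 3 without it, Id2, Id3 and Id4. The effect of EB differed between starting media for Bambi at days 5 to 7, by 1.44 ± 0.34 (adjusted p = 0.0201, beside 4.07% of all genes), and that difference was 0.16 without the same library.

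Some mesodermal genes stood high in the same library. Among the 6 libraries of day 7 it was the highest for 4 of 6 cardiac and lateral mesoderm markers, 4 of 6 blood and endothelium markers and 3 of 6 primitive streak markers, and for none of the naive, neural or extraembryonic endoderm markers. Eomes and Mixl1 were higher in EB from SL, and Cdh5 and Myh6 in N2B27. Foxf1 and Hand2, markers of lateral mesoderm, were at 47.8 and 22.3 CPM there and at no more than 2.97 and 2.53 CPM in the other 5 libraries of day 7. Kdr was at 140.0 CPM against 1.77 to 30.05 CPM. The 6 cardiac and lateral mesoderm markers summed to 77.0 CPM against 3.89 to 11.3 CPM, although Nkx2-5 and Tnnt2 stayed under 1 CPM. The part of mesoderm in the levels of Msx2, Smad6, Bambi and the ligands was not tested.

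**Figure D5:**
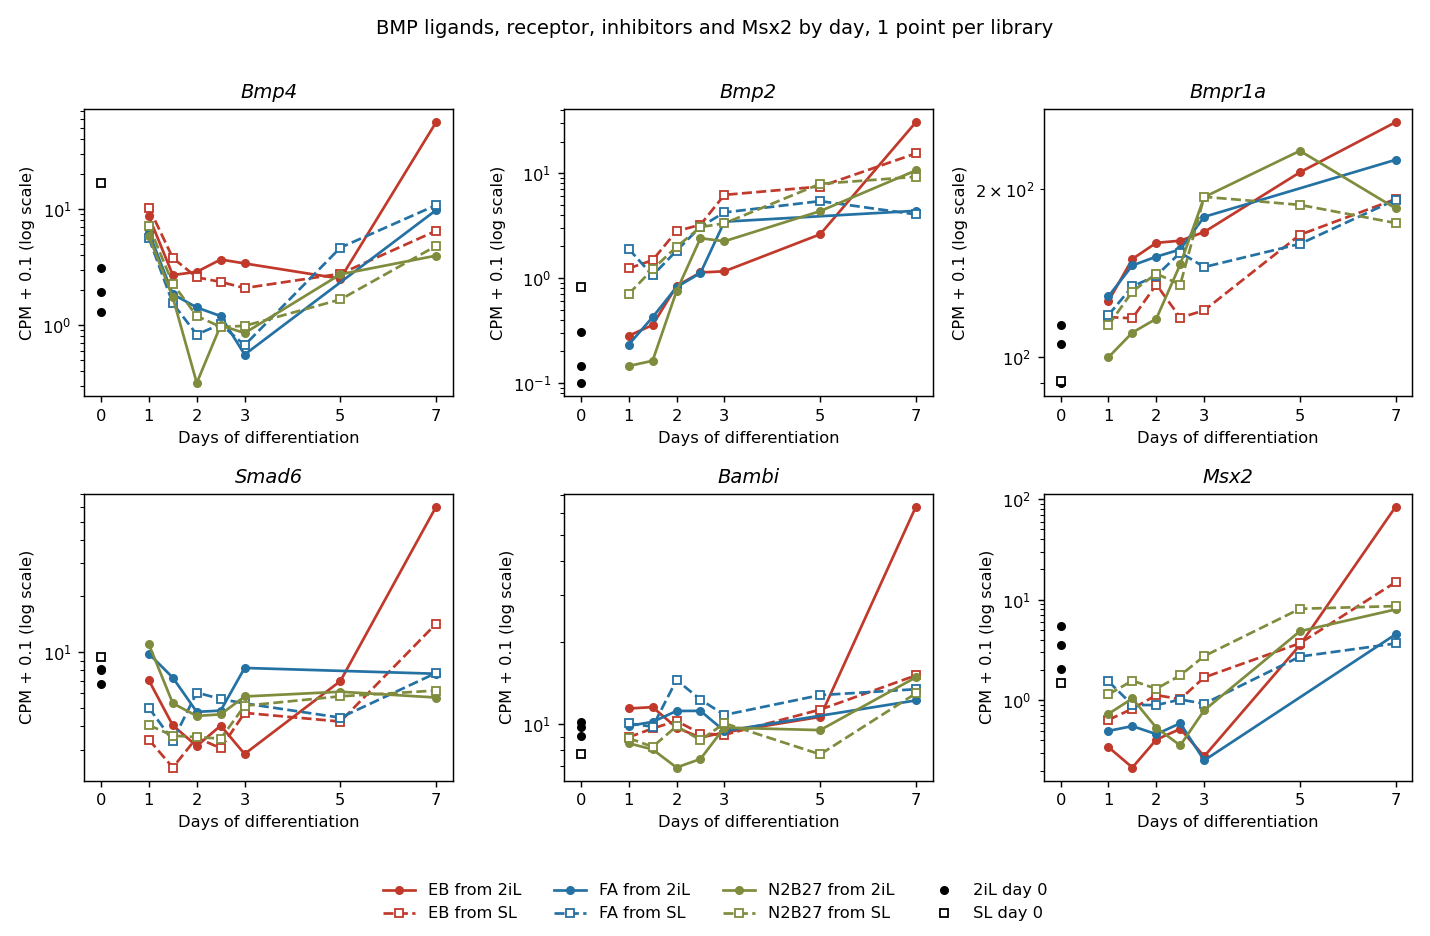
CPM of Bmp4, Bmp2, Bmpr1a, Smad6, Bambi and Msx2 in every library by day, with 0.1 CPM added and a logarithmic vertical axis, in the colours and symbols used for the Id genes. The EB library from 2iL on day 7 is the highest point of each panel, at 84.2 CPM for Msx2 and 63.2 CPM for Bambi.

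The other genes of the pathway were read from lists. Of 8 tested BMP ligands outside the 10 genes, none was higher and 1 lower in EB at days 1 to 2, Bmp7 at -0.67. That call held under 4 of 8 alternatives. At days 2.5 to 3, 4 were lower, Bmp8b at -2.09 and Bmp7 at -1.44 among them. At days 5 to 7, 2 were higher and 4 lower, with Bmp5 at 2.00 and Gdf3 at -1.38. The Bmp5 call was lost against FA alone and within either medium, and the Gdf3 call against N2B27 alone. The Bmp7 call of days 2.5 to 3 was lost within 2iL alone. Of 10 receptors and co-receptors 3 were higher and 2 lower at days 1 to 2, Acvrl1 at 1.55 and the co-receptor gene Hfe2 at -0.94. At days 2.5 to 3, 1 was higher and 4 lower, the type II receptor Acvr2a at -0.70 and the co-receptor Rgma at -1.50 among them, and at days 5 to 7, 1 was higher and 4 lower, with Acvr2b at 0.68 and Eng at -1.01. The Rgma call was lost against FA alone, and the Eng call against N2B27 alone and within 2iL alone. At days 1 to 2 the Acvrl1 call was lost within SL alone, and the Hfe2 call within 2iL alone. None of the 4 Smads that carry the signal was higher in EB at days 1 to 2 or 2.5 to 3. Smad5 was lower in EB at days 1 to 2 and 2.5 to 3, at -0.53 and -0.55, and Smad1 was at -0.16 in the first window, a call that held under 1 of 8 alternatives. At days 5 to 7, 3 of the 4 Smads were higher, with Smad1 at 0.45 and Smad9 at 2.40.

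Secreted antagonists and intracellular inhibitors were mixed. Of 12 antagonists tested, 1 was higher and 1 lower at days 1 to 2, Fst at 1.47 and Twsg1 at -0.18 (a call that held under 3 of 8 alternatives), and none was higher and 4 lower at days 2.5 to 3, Chrd at -0.90 and Twsg1 at -0.45 among them. At days 5 to 7, 4 were higher and 1 lower, with Cer1 at 3.26 and Grem1 at 2.44. The Cer1 call was lost against FA alone. At days 1 to 2 the Fst call was lost within SL alone, and the Twsg1 call at days 2.5 to 3 was lost within 2iL alone. Among 5 intracellular inhibitors, Smad7 and the Smad corepressor Skil were higher in EB in both early windows, at 0.98 and 0.91 at days 1 to 2 and at 0.82 and 0.95 at days 2.5 to 3. Both also respond to Activin and TGF-β, and Smad7 and Skil were among the 3 inhibitors higher in FA than in N2B27 at days 5 to 7, by 1.40 and 1.82. At days 1 to 2, 3 of the 5 inhibitors were also higher in FA than in N2B27. Against FA alone the Smad7 call in EB was lost in both early windows. In EB against serum-free at days 5 to 7, Skil was higher at 0.58 and Smurf1 lower at -0.30. Both of these late calls were lost against FA alone.

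Of 9 other BMP target genes tested, 3 were higher and 1 lower at days 1 to 2, 3 and 4 at days 2.5 to 3, and 2 and 1 at days 5 to 7. Msx1, a relative of Msx2, was at 2.30 in the first window, with 1.90 to 9.56 CPM in EB and 0.361 to 1.79 CPM outside it, and at 3.81 in the last. Prdm1, a regulator of germ cell fate, was at 1.32 in the first window. Zfp423, a cofactor of BMP Smads, was lower in EB at -1.39 and -1.94 in the first and second windows. Hand1, a gene of trophoblast and lateral mesoderm, went from -3.21 at days 2.5 to 3 to 2.48 at days 5 to 7, when EB libraries held 1.98 to 364 CPM. Both Hand1 calls were lost within SL alone. The list medians were -0.48, -0.67 and 0.40, against -0.0043, 0.007 and 0.0029 for all genes.

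The E proteins that Id proteins bind moved little between EB and the mean of FA and N2B27. At days 1 to 2 Tcf12 was at 0.22 and Tcf4 at -0.18, both past the threshold, though the Tcf4 call held under 1 of 8 alternatives and the Tcf12 call under 5 of 8. At days 2.5 to 3 Tcf4 was at -0.42, a call lost within 2iL alone, and against N2B27 alone all 3 E proteins were lower. None of the 3 E proteins passed by edgeR at days 5 to 7. At an unadjusted p under 0.05 the count was 0, and DESeq2 called 0. In SL against 2iL at day 0, 2 of the 3 were lower (list median -0.77), beside 18.2% of all genes. After SL 2 of the 3 were also lower over days 1 to 2 (list median -0.31), beside 21.2%. Of 4 genes of the LIF and Stat3 pathway none was higher in EB, and 3, 1 and 4 were lower in the 3 windows. Socs3 was at -1.41, -1.57 and -1.12 in the 3 windows, and Klf4 at -0.49 in the first and -0.96 in the last. The Klf4 calls held under 5 of 8 and 7 of 9 alternatives, and both were lost against FA alone. The Socs3 call at days 5 to 7 was lost within 2iL alone.

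Per kilobase of exon (RPKM), Id1 and Bmpr1a had the highest levels of the 10 genes in EB at days 1 to 2, at 22.3 to 46.3 and 18.5 to 25.2 RPKM, and these ranges overlapped. Id3 came next at 6.55 to 13.3 RPKM and overlapped with Id2 at 3.75 to 8.26 RPKM. Bmp4 (1.10 to 4.55 RPKM) overlapped with Id2 and also with Bambi (1.74 to 2.26 RPKM) and Smad6 (0.718 to 2.17 RPKM), and Id4, Bmp2 and Msx2 were under 1 RPKM in every library. In N2B27 at days 1 to 2 Bmpr1a led alone at 15.7 to 22.2 RPKM, and Id1 had dropped to 0.865 to 3.65 RPKM. In N2B27 at days 5 to 7 Id1 at 34.2 to 52.8, Id3 at 26.3 to 61.1 and Bmpr1a at 27.3 to 36.8 RPKM overlapped at the top.

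Across the 45 libraries, the genes with the pattern most like that of Id1 were Pwwp2b (Pearson r = 0.84), Kiz (0.82) and Cited2 (0.82), among 13758 genes ranked by log2(TMM-scaled CPM + 0.5). For Id2 they were Arhgap29 (0.92), Timp3 (0.89) and Pxdn (0.87), and for Bmp4 S100a6 (0.79), Nfat5 (0.76) and Tgfb1 (0.73). Within the 10 genes, Id1 was most like Id3 (0.85) and Id2 (0.81). These values describe libraries that share courses and days, and they carry no test.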

How the data were processed

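Stranded, ribosomal RNA-depleted libraries were sequenced from 45 samples. The authors trimmed reads with TrimGalore, mapped them to GRCm38 with TopHat2 and Ensembl gene models, and assigned them to genes by strand with featureCounts. The deposited files hold these raw counts, without normalization, for 35372 genes, of which 435 carry no symbol. Samples were grouped by the labels for starting medium, condition and day. Libraries of 1 condition and day, from different media or at 2iL day 0, were compared for copies (26 pairs, smallest mean chi-square per gene 17.0), and none was found.

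From the counts, CPM was computed over the library total, and RPKM over the exon bases of a GRCm38 annotation. Fits used edgeR 4.0.16 in R 4.3.3 (TMM scaling, filterByExpr, quasi-likelihood test), with Benjamini-Hochberg adjustment over the 17107 genes tested and a threshold of 0.05. The fit by day had a mean for each medium and day, which pairs libraries by the labelled starting medium, and effects of EB and FA against N2B27 on each day. It had 15 residual degrees of freedom. For 19 pairs of conditions on 1 day, the deviations of same-medium libraries from their condition's mean were correlated across genes, with a median of 0.57 (range 0.034 to 0.87). Comparisons with day 0 and interactions used effects per medium and window of days, which treats days as replicates, with 17 residual degrees of freedom. Fits within 1 starting medium used the same form on the libraries of that medium alone, so that days stand as replicates there too. Intervals are 1.96 standard errors each way, at a level of 95%. Fold changes are on the TMM scale. The replicates of a condition are the 2 starting media or neighbouring days, so p-values measure the spread between these libraries. A count floor of 3 per library covers counting error only.

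Alternatives were library totals, no filter, DESeq2 1.42.0, no replicate block, 1 starting medium alone, 1 serum-free condition alone, day 0 libraries alone, leaving out each 2iL day 0 library and, added after seeing the data, leaving out the EB library from 2iL on day 7. The scripts were tested on simulated data. The genes, lists and comparisons were chosen with earlier results of these data known. Named pathway genes are, per list and window of EB against serum-free, up to 2 with the lowest adjusted p past the threshold, besides the 10 genes in all comparisons and, for Id1, Id2 and Bmp4, the 3 genes with the highest correlation among those with a mean of at least 1 CPM. The values of Msx1 at days 1 to 2, and of Skil and Smad7 in FA against N2B27, were added after they were seen. Plots were made with matplotlib 3.10.9.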

Additional observations from a re-analysis of the deposited data

Results flagged for a closer look

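For Bambi at days 5 to 7, the effect of EB against serum-free differed between the starting media, and was 1.44 log2 units larger in libraries from 2iL (edgeR quasi-likelihood test of the interaction, adjusted p = 0.0201). Without the EB library from 2iL on day 7 it was 0.16 (adjusted p = 0.842).

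Several changes from day 0 to days 1 to 2 went in opposite directions from the 2 starting media, in every library of days 1 to 2 against the mean of day 0. The differences between the media in these changes were not tested. On log2(CPM + 0.1), the mean change in EB was 4.08 from 2iL and -0.29 from SL for Id1, and 0.94 from 2iL and -1.86 from SL for Bmp4, although on days 1.5 and 2 Bmp4 in EB from 2iL, at 2.60 and 2.78 CPM, was below the highest of the 3 libraries in 2iL at day 0, at 3.03 CPM. In N2B27 the mean change was 1.41 from 2iL and -0.83 from SL for Id2, and -0.31 from 2iL and 0.20 from SL for Bambi. Not all of these changes were past the threshold by edgeR: Id1 in EB from SL and Bmp4 in EB from 2iL did not pass against day 0. In the mean of FA and N2B27, Id2 did not pass from SL, and Bambi passed from neither medium. All changes from SL are relative to its single day 0 library.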

How the results depend on the processing

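Of 684 values of the 10 genes under an alternative, 616 kept their direction and their side of the threshold, 53 lost the call, 12 gained it and 3 reversed, all of these in EB against serum-free at days 5 to 7. With N2B27 alone as the serum-free side Id1 was -0.22 (adjusted p = 0.534) and Id3 -0.54 (0.0273), and with FA alone Id2 was 0.23 (0.554). Leaving out 1 starting medium, the number of the 10 genes past the threshold was 3 to 4 at days 1 to 2 and 1 to 5 at days 5 to 7 in EB against serum-free, and 1 to 6 for FA against N2B27 at days 5 to 7. The genes called in all were 3662 to 3833 at days 1 to 2 (5644 with both media), 4080 to 4768 at days 2.5 to 3 (6552) and 3281 to 3773 at days 5 to 7 (5763) for EB, and 17 to 241 (262) and 2545 to 4328 (5537) for FA against N2B27. Leaving out each 2iL library of day 0 gave 2 to 4 of the 10 in 2iL to serum-free. The media were paired as a block. Without the replicate block, 5 of the 10 rather than 8 passed at days 5 to 7, Id3, Bmp2 and Msx2 being lost, and 20 rather than 27 calls were made over single days. For FA against N2B27 at days 1 to 2, 262 genes passed, 54 without the block, 642 by DESeq2 and 1064 with library totals, which moved the median of all genes by 0.13 log2 units. With FA alone, 3230 genes passed in EB at days 5 to 7. Without the EB library from 2iL on day 7, 4009 genes and 3 of the 10 passed at days 5 to 7 rather than 5763 and 8, and 0 rather than 1 in the interaction (edgeR). Genes near 3 counts, such as Bmp2 and Msx2 at days 0 to 2, have the least precise values.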
